A study of Mus musculus with 72 samples.

Results

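The genes described here are 7 transcription factor genes tied to the serotonergic identity of dorsal raphe (DR) neurons: Fev, Lmx1b, Gata2, Gata3, En1, En2 and Insm1. They were chosen by name, by a rule that uses no measured value but with earlier results of these data known, and all 7 were found among the 17231 genes of the 10X table and among the 24256 genes of the table of manually sorted cells. In the 10X experiment, EGFP-marked cells of the whole DR were captured from adult mice of 2 genotypes, Pet1-Flpe+/-; hM3Dq+/+ (mean age postnatal day 65.5) and En1-cre+/-; Pet1-Flpe+/-; RC-FrePe+/- (mean age postnatal day 59). Pet1-Flpe is a transgene that carries Flpe recombinase under Fev regulatory sequence, so a cell is marked by a history of Fev expression, and in the second genotype also by a history of En1 expression. The manually sorted cells came from mice that carried Pet1-Flpe+/-, RC-FrePe+/- and 1 Cre driver, and each was picked by its fluorescence after dissection of a DR subdomain.

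The manual cells fall into 8 groups. Slc6a4-cre (Sert-cre in the genotype) gave 10 dorsolateral (dlDR), 9 dorsomedial (dmDR) and 8 ventromedial (vmDR) cells of postnatal days 63 and 90, and 6 caudal (cDR) cells of day 63. Npy2r-cre gave 9 rostral (rDR) and 10 cDR cells of days 77 and 87, Crh-cre gave 8 rDR cells of days 83 and 119, and P2ry1-cre gave 10 cDR cells of days 62 to 74. Cre and Flpe mark every cell with a history of the driver, so a group holds cells that may no longer express it. No label names an animal, so each group is 1 sample, the 10X table is 1 pooled sample, and no test or p-value is given. Every spread below is a spread between cells.

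Fev (also called PET1) is an ETS factor, and LMX1B is a LIM homeodomain factor that maintains serotonergic genes together with it. GATA2 is a zinc finger factor that acts upstream of Fev in newborn serotonergic neurons, and GATA3 is its close relative. EN1 and EN2 are the Engrailed homeodomain factors of the midbrain and anterior hindbrain, and INSM1 is a zinc finger factor of newly born neurons and neuroendocrine cells. Together these factors set up and keep up the genes for making, packing and taking back serotonin, which include Tph2, Slc18a2 and Slc6a4.

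The RefSeq promoter of Fev is shown first, since it holds short motifs of the factor families in the list, and that of Tph2, which encodes the rate-limiting enzyme of serotonin synthesis, beside it. Both are given on the gene's own strand as the 250 bases before the transcription start, on GRCm38.p6 (the mm10 assembly), at chr1:74885409-74885658 (minus strand) for Fev and chr10:115185023-115185272 (minus strand) for Tph2. Capitals mark AGATAA (the motif of GATA factors, or TTATCT on the other strand), TAATTA (a homeobox motif) and CGGAA (an ETS core, or TTCCG on the other strand), none of which overlap here.

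Fev: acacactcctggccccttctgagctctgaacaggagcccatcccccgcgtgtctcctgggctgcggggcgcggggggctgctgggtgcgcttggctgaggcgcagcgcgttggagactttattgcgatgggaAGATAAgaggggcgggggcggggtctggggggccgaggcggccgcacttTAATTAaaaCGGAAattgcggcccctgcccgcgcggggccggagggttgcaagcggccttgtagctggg

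Tph2: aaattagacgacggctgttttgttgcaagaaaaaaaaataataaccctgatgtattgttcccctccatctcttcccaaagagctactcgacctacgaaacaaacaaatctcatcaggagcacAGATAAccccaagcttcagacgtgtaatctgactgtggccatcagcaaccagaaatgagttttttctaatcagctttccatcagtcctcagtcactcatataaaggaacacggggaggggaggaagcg

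The Fev promoter held all 3 motifs, with the GATA motif beginning 118 bases, the homeobox motif 69 bases and the ETS core 60 bases before the start. Of 32851 RefSeq promoters of the same length, 9.99% held AGATAA, 4.84% TAATTA, 25.2% CGGAA and 0.113% all 3, each counted on both strands. The Tph2 promoter held the GATA motif alone, beginning 128 bases before the start. Promoters were matched for 5 of the 7 factor genes, of which 1 held AGATAA, and for 11 of 13 serotonin effector genes, of which 2 did (Tph2 and Slc18a2). The ETS core was in 4 of the 5 and 4 of the 11, and the homeobox motif in 1 of the 5 and 0 of the 11. These matches describe letters and not binding.

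On mm10 (GENCODE), Fev (ENSMUSG00000055197.4) lies at chr1:74881509-74885419 and En1 (ENSMUSG00000058665.8) on the same chromosome at chr1:120602418-120607992. Lmx1b (ENSMUSG00000038765.13) lies at chr2:33560965-33640511, Gata3 (ENSMUSG00000015619.10) at chr2:9857078-9890034 and Insm1 (ENSMUSG00000068154.5) at chr2:146221921-146225020. Gata2 (ENSMUSG00000015053.14) lies at chr6:88193891-88207032 and En2 (ENSMUSG00000039095.8) at chr5:28165694-28172166. Gata3 overlaps 3 annotated genes, 1 of them (9230102O04Rik) on its own strand, and Lmx1b and En2 each overlap 1 gene on the other strand. The files do not show how reads in these overlaps were counted.

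The 10X table holds 2350 cells with 12320 to 134079 UMIs per cell (median 59646), and the 70 manual cells hold 756872 to 7664103 reads each. The 10X barcodes end in 1 (869 cells) or 2 (1481 cells), and nothing states which ending is which genotype, so they are called barcode sets 1 and 2. The sets share 0 barcode sequences. The cells were grouped into 14 clusters, numbered by marker genes of the study's subtypes. The median number of UMIs per cell was lowest in cluster 13 (28630), cluster 14 (34720), cluster 1 (45520) and cluster 12 (45570), against 57330 to 70420 elsewhere. Summed markers of glia, 8 of 10 in the table, were lowest at 25.0 CPM (cluster 11) and highest at 70.1 CPM (cluster 13), where Mbp (47.2 CPM) made up most of the sum and Gfap was at 0. The authors had removed cells with low Fev before deposit, so the share of cells with Fev is set in part by that step. In UMIs summed over a cluster, fewer cells with a transcript and less transcript per cell cannot be told apart, so shares of cells are given too.

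The first question was how far each factor is shared by all Pet1 neurons. Fev had a UMI in 2350 of 2350 cells, with 1 to 69 UMIs and a median of 19 per cell. Its lowest level in a cell was 64.4 CPM (the gene's UMIs per 1000000 UMIs of that cell) and its highest 1154 CPM. En1 was also nearly general, with a UMI in 2342 cells and a median of 19. Cells of the En1-cre genotype were marked through a history of En1, so this share may be set in part by the marking. Gata3 had a UMI in 2327 cells (median 11), Gata2 in 2262 (median 6) and Lmx1b in 2229 (median 4). En2 was found in 1767 cells, 75.2%, with a median of 2, and Insm1 in 305 cells, 13.0%, with at most 3 UMIs. Fev, Lmx1b, Gata2, Gata3 and En1 were each in nearly all cells of the table, while En2 and Insm1 were not. Cluster 13, which has the lowest depth, departed from this: Gata2 had a UMI in 76.4% and Lmx1b in 79.9% of its 144 cells.

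These shares depend on depth, so they were computed again on 2297 cells with 20000 UMIs drawn from each. Fev then remained detected in 99.5%, En1 in 99.2%, Gata3 in 96.1%, Gata2 in 83.8% and Lmx1b in 73.4% of cells. En2 was detected in 49.8% and Insm1 in 5.75%. All of Fev, Lmx1b, Gata2, Gata3 and En1 were found together in 2140 of 2350 cells (91.1%, exact binomial 95% interval 89.8 to 92.2), and with En2 in 1642 (69.9%, 68.0 to 71.7). The 5-factor share was 59.4% in thinned cells, so it follows depth. In cluster 13 it was 57.6% (83 of 144 cells, 49.1 to 65.8) and 40.3% (31.9 to 49.1) once thinned, where Gata2 was detected in 67.2% of cells. No cell type outside the Pet1 neurons was at hand to measure free RNA for all 7 factors. For En2 and Insm1 the lowest shares in a cluster limit what free RNA gave in those cells: 11.9% in cluster 12 for En2 and 1.56% in cluster 4 for Insm1.

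The levels varied between clusters by about 2-fold to 3-fold for most factors and by far more for En2. Among genes of at least 10 CPM, 5 of the 6 factors that reach it differed by at least 2-fold between their highest and lowest cluster, Lmx1b being the exception at 1.85-fold. This compares with 32.0% of the 8393 genes of that level. En1 lost this call where most cells of cluster 10 joined cluster 8: its fold was 2.10 here, but 1.81 with components 1 to 50, 1.67 at a resolution of 0.7 and 1.85 with a truncated decomposition, which left 4 of the 6 past 2-fold. Clusters were formed from 2000 variable genes that include Gata2, Gata3 and En2, so these differences describe the clusters and are no test of them. When the clustering was repeated without the 7 factors and 13 effector genes, 98.3% of cells kept their cluster number.

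**Figure D1:**
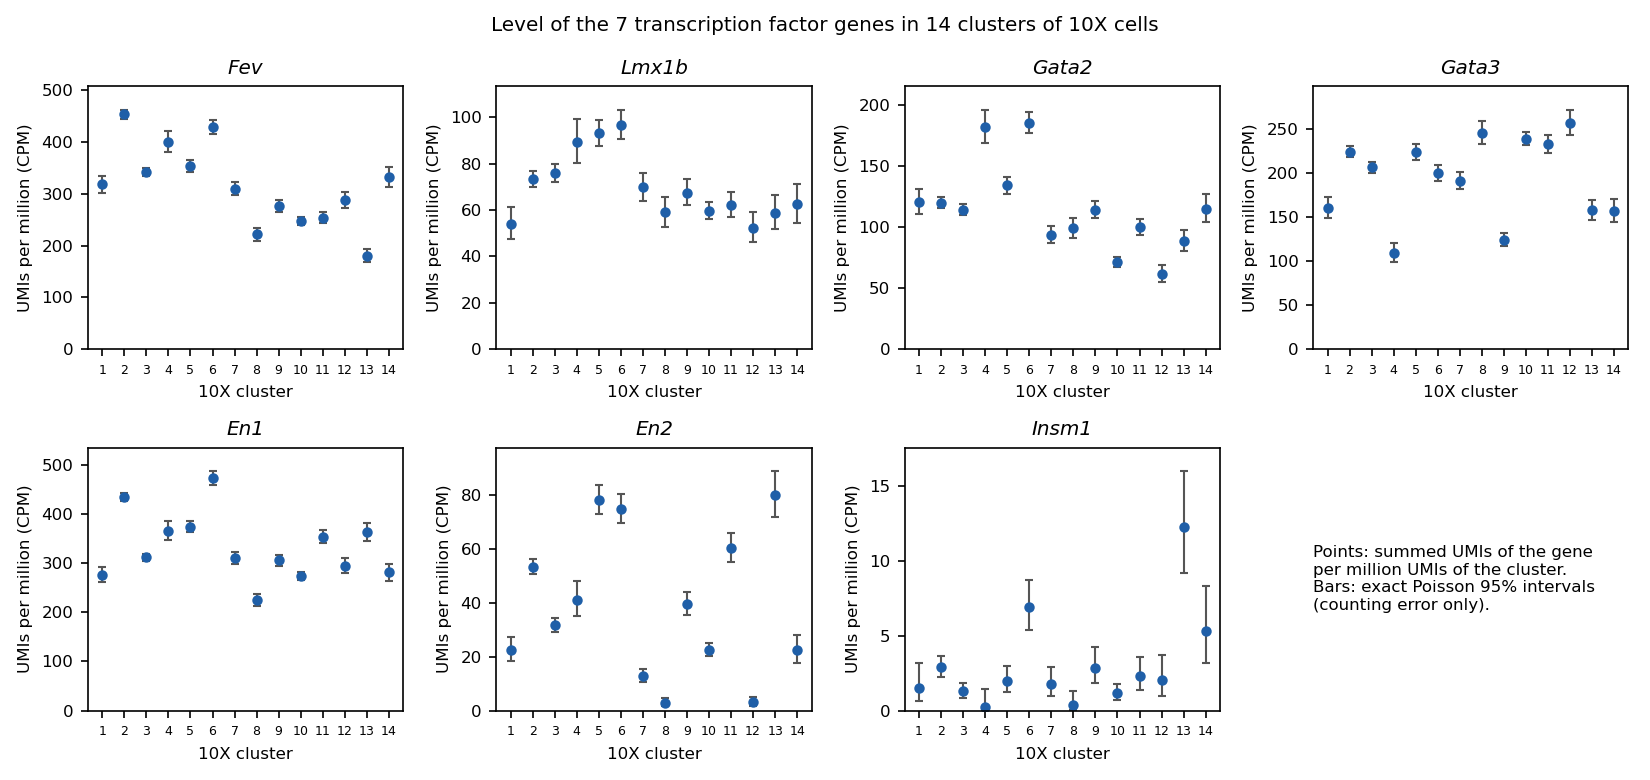
Level of each factor gene in the 14 clusters of 10X cells, in CPM from UMIs summed over the cluster (vertical axes from 0), with exact Poisson 95% intervals that cover counting error only. En2 is at 79.8 CPM in cluster 13 and at 2.96 CPM in cluster 8, whereas Lmx1b stays between 52.3 and 96.9 CPM.

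Fev was highest in cluster 2 (marked by Crym and Trh) at 453 CPM (exact Poisson 95% interval 445 to 462) and in cluster 6 (marked by Pou3f2, Bcl11a and Gad1) at 428 CPM (416 to 442). It was lowest in cluster 13 (marked by Nfib, Nppc and Bmp3) at 180.5 CPM (168 to 194) and in cluster 8 (marked by Rorb, Nr2f2 and Wnt4) at 222 CPM (209 to 234). In the order from low to high, 8 of 13 neighbouring pairs of clusters had overlapping intervals. Within cluster 13 the 10th and 90th percentile of cells were 77.2 and 325 CPM around a median of 141, which reached the lower end of the Fev range that the authors' filter left. Cluster 13 is also the cluster with the lowest Tph2 (644 CPM), the fewest UMIs per cell and the highest glial marker level per UMI (70.1 CPM), and the part of these in its Fev level was not tested.

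Lmx1b had the flattest profile in this clustering. With components 1 to 50 its fold was 1.86 against 1.81 for En1, and at a resolution of 0.7 it was 1.84 against 1.67, so En1 was flatter there. Lmx1b was highest in cluster 6 at 96.9 CPM (90.8 to 103), cluster 5 (Pdyn, Ret, Col25a1) at 93.1 CPM and cluster 4 (Sox14, Vim, Prkcq) at 89.3 CPM. It was lowest in cluster 12 (Met and Zeb2) at 52.3 CPM (46.2 to 59.1). Of its 13 neighbouring pairs, 12 overlapped, and the pair that did not was clusters 3 and 4. Clusters further apart in the order could differ, as cluster 10 (56.1 to 63.65 CPM) and cluster 2 (70.1 to 76.8 CPM) did. In cluster 13, where Fev was lowest, Lmx1b was at 58.7 CPM.

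The GATA factors had different profiles. Gata2 was highest in cluster 6 at 186 CPM (177 to 194) and cluster 4 at 182 CPM (169 to 196), and lowest in cluster 12 at 61.4 CPM (54.7 to 68.7) and cluster 10 (Hs3st5, Hcrtr2, Cbln2) at 71.7 CPM. Gata3 ran the other way in clusters 12 and 4. It was highest in cluster 12 at 257 CPM (243 to 272) and cluster 8 at 246 CPM. It was lowest in cluster 4 at 109 CPM (99.0 to 120) and cluster 9 (Maf, Nos1, Crh) at 124 CPM (117 to 132). In cluster 6, however, Gata3 was at 200 CPM against 206 CPM over all cells, and in cluster 9 Gata2 was at 114 CPM, as over all cells. Over all cells there were 1.81 Gata3 UMIs for each Gata2 UMI (95% interval 1.78 to 1.85). Cluster 12 had the highest ratio, 4.19 (3.70 to 4.76), followed by cluster 10 at 3.33 and cluster 8 at 2.48. The ratio was near 1 in clusters 9 (1.09) and 6 (1.08) and 0.599 (0.530 to 0.676) in cluster 4. Cluster 4 was the single cluster in which Gata2 UMIs outnumbered Gata3 UMIs over both barcode sets together and in set 2 (0.767), with a ratio of 0.298 in set 1. In set 1, a split by cluster made after seeing the data, the ratio was below 1 in 5 of 14 clusters, which were cluster 4, cluster 6 (0.834, 0.729 to 0.954) and clusters 9 (0.896), 1 (0.968) and 14 (0.974), whose intervals held 1. Cluster 12 was highest and cluster 4 lowest in both sets. The ratio is compared between clusters only, since 2 genes need not be captured equally well.

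**Figure D2:**
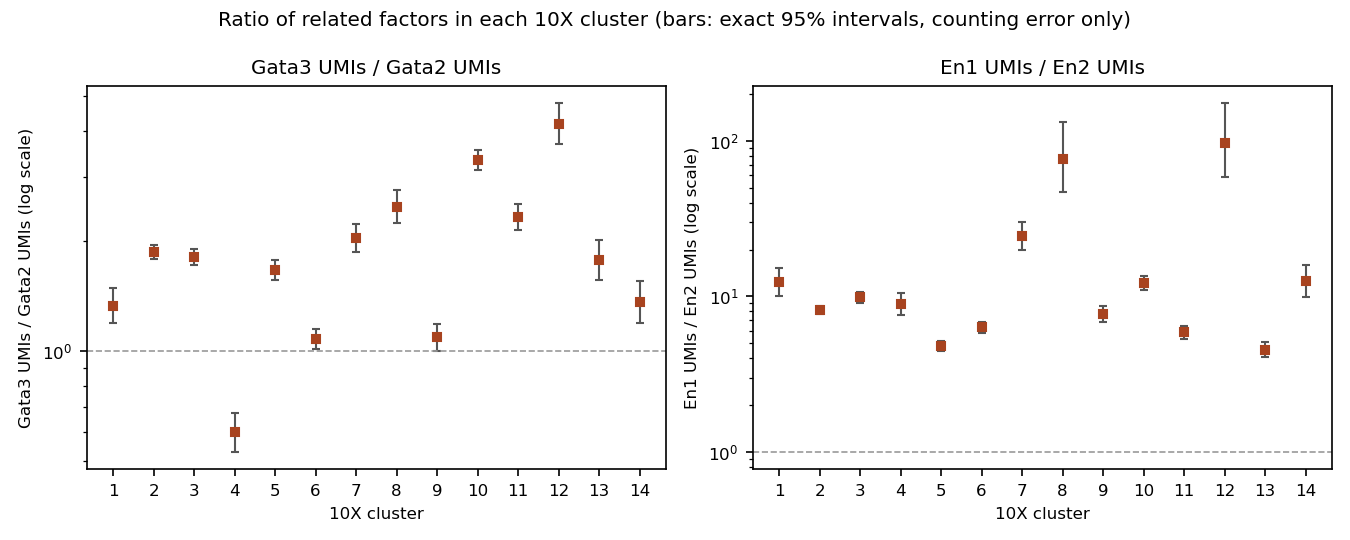
Ratio of Gata3 to Gata2 UMIs and of En1 to En2 UMIs in each 10X cluster (vertical log axes), with exact 95% intervals for counting error, and a dashed line at a ratio of 1. Gata3 to Gata2 spans 0.599 in cluster 4 to 4.19 in cluster 12, and En1 to En2 spans 4.55 in cluster 13 to 97.5 in cluster 12.

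Cluster 6 was among the highest for both Engrailed genes. Cluster 8 was the lowest for En1 and, together with cluster 12, for En2, but over different ranges. En1 was highest in cluster 6 at 472.5 CPM (459 to 486) and cluster 2 at 435 CPM, and lowest in cluster 8 at 225 CPM (212 to 238). Under the settings that join cells of cluster 10 to cluster 8, En1 there was at 256 to 261 CPM and still the lowest. En2 was highest in cluster 13 at 79.8 CPM (71.7 to 88.6), cluster 5 at 78.1 CPM (73.0 to 83.4) and cluster 6 at 74.7 CPM (69.4 to 80.3), which overlap. It was close to the limit of detection in cluster 8 at 2.96 CPM (1.69 to 4.80) and cluster 12 at 3.02 CPM (1.69 to 4.98), with cluster 7 (Tmeff2, Adcy2, Nrp2) next at 12.8 CPM (10.4 to 15.5). The highest level was 27.0-fold above the lowest, and 26.4-fold under the other clusterings, where cluster 12 was the lowest.

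Shares of cells also set clusters 8 and 12 apart for En2. A UMI was present in 97.8% of cluster 5 cells and 95.35% of cluster 6 cells, against 15.3% of cluster 8 cells and 11.9% of cluster 12 cells. In thinned cells the shares were 78.0%, 74.85%, 3.61% and 6.60%. Cluster 13, highest by CPM, had En2 in 77.8% of cells (71.6% thinned), a smaller share than clusters 5 and 6. Cluster 8 held 16 En2 UMIs in all, 2 of them in barcode set 1 and 14 in barcode set 2, and cluster 12 held 15, of which 9 and 6. In the clustering made without the factors and effectors, the log2 ratio of En2 to all other cells was -3.73 in cluster 8 and -3.84 in cluster 12, against -3.88 and -3.84 with all variable genes. Cluster 8 depended on the settings, however: with components 1 to 50, a resolution of 0.7 or a truncated decomposition it took in 171, 240 or 166 of the 240 cells of cluster 10, and the log2 ratio of En2 there was -1.72, -1.40 or -1.72. The 109 cells of cluster 12 kept that number under all of these settings. The 2 clusters kept En1 at 225 and 294 CPM, so that En1 to En2 reached 76.1 and 97.5.

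Insm1 was low everywhere. It was highest in cluster 13 at 12.2 CPM (9.20 to 16.0), then cluster 6 at 6.91 CPM (5.36 to 8.75) and cluster 14 (Gpr101, Ecel1, Cxcl14) at 5.32 CPM (3.21 to 8.31). Elsewhere it was at 2.90 CPM or less, and in cluster 4 a single UMI was found in 64 cells. A UMI was present in 29.9% of cluster 13 cells and 29.65% of cluster 6 cells, or 22.4% and 13.8% after thinning. At this depth a level under that of 1 UMI per cell cannot be told from absence in a cell.

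Barcode sets served as a split within the pooled table. Of the 6 factors with at least 10 CPM, 2 differed by 1.2-fold or more between the sets, as did 20.4% of the 8393 genes of that level. Gata3 was lower in set 1 (178 CPM, and 222 CPM in set 2), as were 7.61% of genes, and En1 was higher (388 and 323 CPM), as were 12.7%. Gata3 was lower in set 1 in 14 of 14 clusters and Gata2 higher in set 1 in 14 of 14 (127 and 106.5 CPM over all cells), so the Gata3 to Gata2 ratio was 1.40 (1.36 to 1.45) in set 1 and 2.08 (2.03 to 2.13) in set 2. En1 was higher in set 1 in 13 of 14 clusters. With the endings tied to no genotype, the parts of genotype, age and library cannot be told apart.

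The spread over cells was then separated from counting noise, as the squared coefficient of variation of thinned UMIs minus the part that counting alone gives. It was 0.0921 for Lmx1b, 0.101 for En1, 0.117 for Fev, 0.136 for Gata3, 0.205 for Gata2 and 0.554 for En2. The value for Insm1 was 1.89, but from a mean of 0.0627 UMIs per thinned cell it is poorly set, and it was 0.879 at 10000 UMIs. At 10000 UMIs the values were 0.0990 for Fev, 0.104 for En1, 0.146 for Gata2, 0.178 for Gata3, 0.186 for Lmx1b and 0.460 for En2, so En2 was the most spread of the 6 at both depths, and the order of Lmx1b, Gata2 and Gata3 was not kept. The authors had removed cells of low Fev, so the spread of Fev is that of the cells kept and is not ranked against the other factors. By standardised variance, En2 ranked 954, Gata2 1352 and Gata3 1874 of 17231 genes, and the other factors ranked between 2863 and 4330, outside the 2000 most variable. Tph2, for scale, had a value of 0.217 and ranked 436.

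Part of this spread lay within clusters. The median value within clusters was 0.0496 for Fev, 0.0512 for En1, 0.0531 for Lmx1b, 0.107 for Gata3, 0.142 for Gata2 and 0.225 for En2. Differences between cluster means made up 38.5% of the variance of log-normalised Fev and 34.0% of that of En2. They made up 22.6% for En1, 19.6% for Gata2, 16.7% for Gata3, 9.15% for Insm1 and 8.39% for Lmx1b. These variances include counting noise, so they are shares of measured variance.

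The mutual correlation over cells asks whether the factors rise and fall together. Pearson r of log-normalised levels was highest for Fev and En1 (0.38) and for En1 and En2 (0.35). It followed at 0.25 for Fev and Gata2, 0.25 for Gata2 and En1 and 0.21 for Lmx1b and Gata2. Leaving out Insm1, 13 of 15 pairs were above 0, with a median of 0.15, and 5 of 15 reached 0.2, against 0.54% of all pairs of the 8393 genes of at least 10 CPM. No pair of the 6 was at or below -0.2, against 0.354% of all pairs. All values come from 2350 cells of pooled mice that share libraries, and are descriptions.

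Gata3 had low correlations with the other factors over all cells. Its r was 0.08 with Fev, 0.01 with Lmx1b, 0.0022 with En1 and -0.0070 with En2, and it was -0.12 with Gata2. The Gata2 and Gata3 correlation was below 0 within 12 of 14 clusters, with a median of -0.10. These values pool both barcode sets, and Gata2 was higher and Gata3 lower in set 1 in 14 of 14 clusters. The part of this in the r within clusters was not tested. Over the cells of barcode set 1 alone the r of Gata2 and Gata3 was -0.046, and of set 2 alone -0.13. The sets differed for other pairs too: the r of Gata3 and Fev was 0.17 in set 1 and 0.039 in set 2, and that of Gata3 and En1 was 0.086 and 0.016. In set 1, Gata3 thus had a higher r with Fev than En2 had (0.061).

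**Figure D3:**
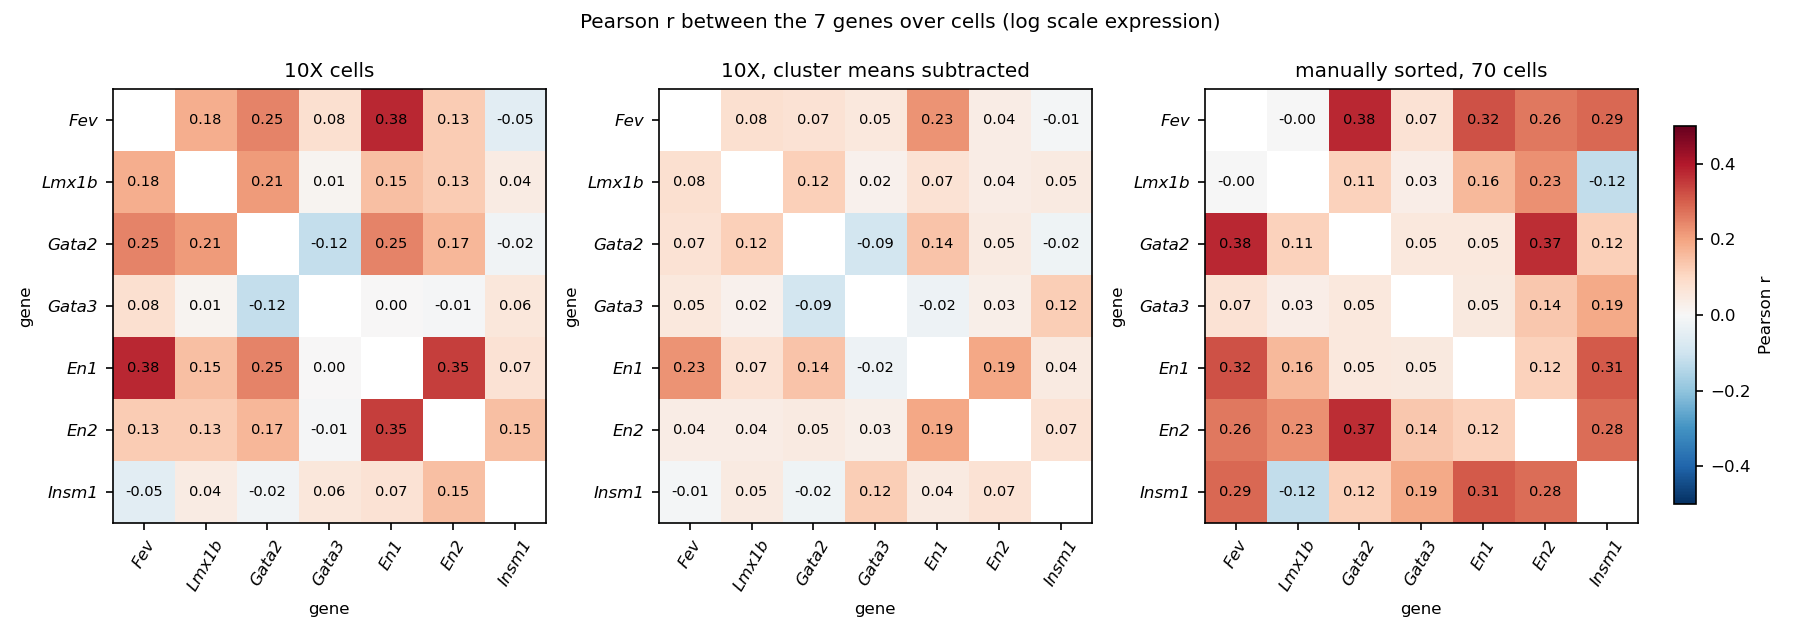
Pearson r between the 7 genes over 2350 10X cells (log-normalised UMIs), over the same cells after each cluster's mean was subtracted, and over 70 manually sorted cells (log2 of CPM plus 1), on 1 colour scale from -0.5 to 0.5. In the 10X cells the pairs Fev and En1 (0.38) and En1 and En2 (0.35) are the highest and Gata2 and Gata3 (-0.12) the lowest.

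Part of the correlation came from differences between clusters. With each cluster's mean subtracted, r was 0.23 for Fev and En1, 0.19 for En1 and En2, 0.14 for Gata2 and En1 and 0.12 for Lmx1b and Gata2, while that of Fev and Gata2 fell to 0.07. The median of the 15 pairs was then 0.053. Lmx1b and Gata2 were correlated above 0 in 14 of 14 clusters (0.054 to 0.21), and Fev and En1 in 13 of 14 (-0.0024 to 0.40). Counting noise lowers r for genes with few UMIs. Corrected for it, r was 0.62 for En1 and En2 and 0.57 for Lmx1b and Gata2. It was 0.47 for Fev and En1 and -0.15 for Gata2 and Gata3. Over 8 simulated pairs the corrected r was off by up to 0.126. The correction rests on each gene's spread beyond counting noise. For Lmx1b this spread was 0.092 in the main thinning but 0.186 at 10000 UMIs, so corrected values with Lmx1b are poorly set.

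Seen against all 8392 other genes of at least 10 CPM, Fev was the third highest correlate of En1 and En1 the 30th of Fev. Fev itself had 290 genes at r of 0.2 or more (3.46%), the most of the 7, and Lmx1b had 19 (0.226%). The genes with a UMI in at least 10% of cells that were most like each factor over the cells were led for Fev by Cdh13 (0.55), Gucy1a3 (0.50) and Prmt8 (0.48), and for En1 by Asb4 (0.47), Ajap1 (0.38) and Fev. Those of Gata2 were Syt1 (0.40), Gucy1a3 (0.37) and Ajap1 (0.36). Those of Gata3 were weaker, Celf4 (0.27), Tspan13 (0.26) and Gnai1 (0.24), as were those of Lmx1b, Scamp1 (0.24), Zbtb20 (0.23) and Fut9 (0.23). En2 was most like Vsnl1 (0.43), Zbtb20 (0.42) and Fam3c (0.41), and Insm1 was most like Kctd8 (0.32), Nptx2 (0.31) and Nfib (0.30).

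Over the 14 cluster levels, where n is 14 clusters of shared libraries, the 2 genes most like each factor were Pam (0.91) and Ccdc71 (0.86) for Fev, Cndp2 (0.91) and Pigs (0.91) for Lmx1b, and Ache (0.91) and Klhl12 (0.91) for Gata2. They were Plppr5 (0.86) and Ppdpf (0.83) for Gata3, E2f5 (0.89) and Gad1 (0.85) for En1, Pla2g7 (0.97) and Robo1 (0.95) for En2, and Bms1 (0.95) and Spop (0.89) for Insm1. No gene stands in more than 1 of these 7 pairs. With only 2 genes taken per factor out of 8393, nothing is read from this. At the other end, Slc17a8, which encodes the vesicular glutamate transporter VGLUT3, had the lowest r over cells with Fev (-0.53) and with Gata2 (-0.34). Nefl had the lowest with En1 (-0.43), Spock3 with En2 (-0.42), Dlk1 with Gata3 (-0.31) and Tph2 with Insm1 (-0.28).

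The factors were next set beside 13 serotonin effector genes, which encode enzymes, transporters and autoreceptors of serotonergic neurons. Fev reached an r of at least 0.2 with 7 of 13, against 3.46% of all other genes of at least 10 CPM, led by Slc18a2, the vesicular monoamine transporter (0.45), Gch1, the first enzyme of tetrahydrobiopterin synthesis (0.44), and Slc6a4, the serotonin transporter (0.41). Gata2 did so with 7 of 13 (1.37% of all genes), led by Slc6a4 (0.30) and Slc18a2 (0.29). Gata3 did so with Maob alone (0.23), against 0.238% of all genes. En1 did so with Gchfr, the GTP cyclohydrolase feedback regulator, alone (0.29), against 1.58% of all genes. Lmx1b and En2 reached it with none, against 0.226% and 1.525% of all genes. Insm1 was at -0.2 or below with Tph2 (-0.28), Slc18a2 (-0.24) and Slc6a4 (-0.24), against 0.143% of all genes.

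Many of these values were smaller without the clusters of low effector levels. In clusters 1 to 11, which leaves out clusters 12 to 14, the r of Fev was 0.31 with Gch1, 0.30 with Slc18a2 and 0.18 with Slc6a4, but 0.018 with Ddc and -0.19 with Tph2. Over all cells, r from thinned UMIs corrected for counting noise, a measure added after seeing the data, was 0.46 for Fev and Slc18a2 and 0.49 for Fev and Gch1, and near 0 for Fev and Tph2 (-0.051), which is not read as a change of sign. By the same measure, with the limit on Lmx1b given above, the r of Lmx1b ran from -0.066 with Slc29a4 to 0.37 with Slc6a4. In clusters 1 to 11 the median r of Fev over the 13 genes fell from 0.24 to 0.028. For Gata2 the median there fell from 0.21 to 0.048, and the highest values were then those of Slc18a2 (0.22) and Htr1a, the somatodendritic autoreceptor (0.20). In the same clusters the r of Insm1 was -0.085 with Tph2, 0.011 with Slc18a2 and 0.0018 with Slc6a4. With cluster means subtracted over all cells, the r of Fev was 0.14 with Slc18a2, 0.18 with Gch1, 0.19 with Slc6a4 and 0.24 with Gchfr, from 0.45, 0.44, 0.41 and 0.35. That of Gata2 with Slc6a4 was 0.21, from 0.30.

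**Figure D4:**
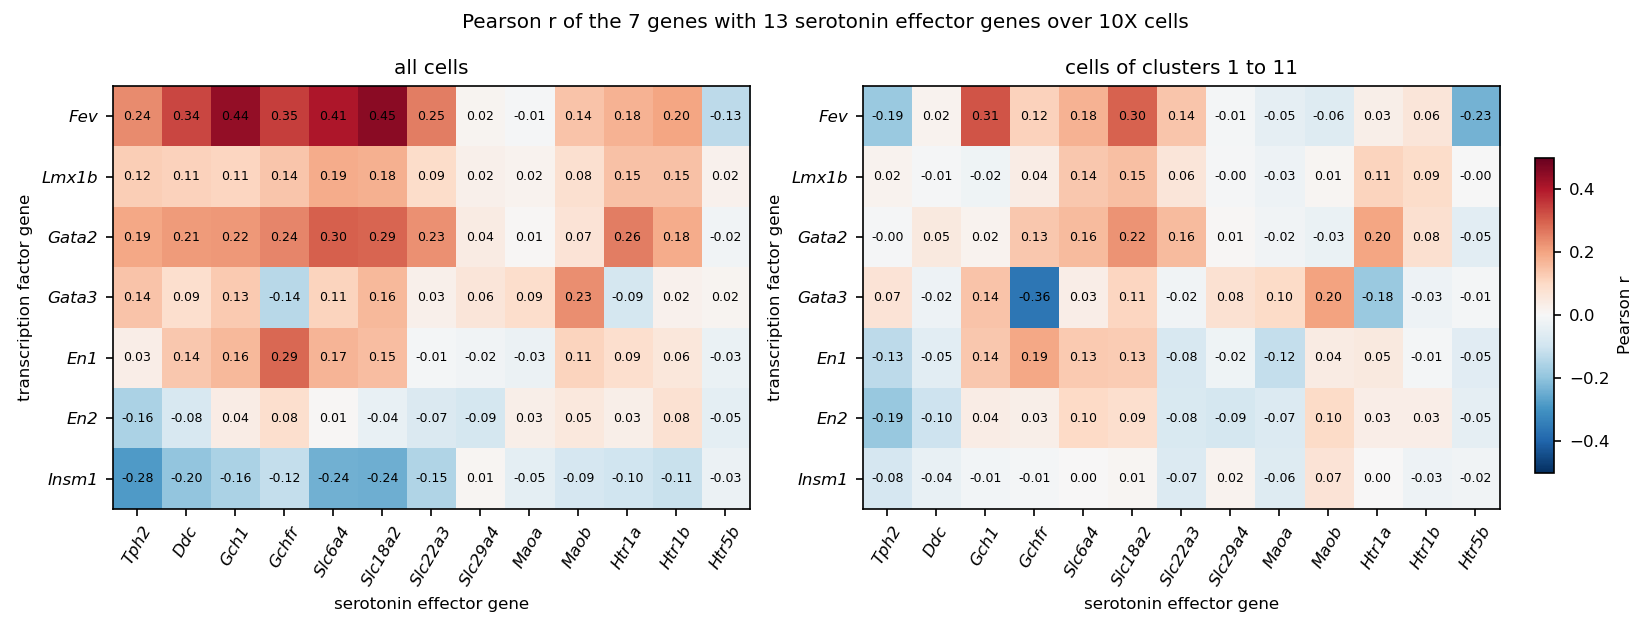
Pearson r of each factor gene (rows) with 13 serotonin effector genes (columns) over all 2350 10X cells and over the cells of clusters 1 to 11, on 1 colour scale from -0.5 to 0.5. The r of Fev with Tph2 goes from 0.24 in all cells to -0.19 in clusters 1 to 11, and that with Slc18a2 falls from 0.45 to 0.30.

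Of 20 genes for other factors and cofactors of serotonergic or neighbouring lineages, 19 were in the 10X table and 7 reached 10 CPM, as did 8393 of all 17231 genes. Of these 7, 6 differed by at least 2-fold between clusters, as did 12 of the 13 effectors and 32.0% of all genes of that level. The progenitor factors Nkx2-2 (0.826 CPM) and Foxa2 (0.0959 CPM) were under that level, whereas Hmx2 (36.4 CPM), Hmx3 (23.6 CPM) and Zfpm1, the GATA cofactor FOG1 (26.9 CPM), were above it. Nkx2-2 was highest in cluster 8, at 10.7 CPM. Lmo4, which encodes a LIM-only protein, was highest in cluster 13 at 104 CPM and had an r of -0.26 with Fev and -0.22 with Gata2.

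Among 22 other genes of the ETS, GATA, LMX and INSM families, 18 were in the 10X table and 3 reached 10 CPM, all of them ETS genes: Elf2 (20.5 CPM), Etv3 (20.2 CPM) and Ets2 (19.1 CPM). Their r with Fev lay between -0.065 and 0.038. Lmx1a and Insm2, which the list of lineage factors also holds and which are the closest relatives of Lmx1b and Insm1, were at 0.0443 and 0.0295 CPM.

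Of 21 genes of the isthmus and rhombomeres, 8 were in the 10X table and 2 reached 10 CPM. Pax5, an isthmic factor, was highest in cluster 2 at 94.6 CPM and lowest in cluster 12 at 0.402 CPM, and its r was 0.43 with Fev, 0.36 with En2 and 0.36 with En1. Nr2f2, which encodes the nuclear receptor COUP-TFII, was highest in cluster 12 at 135 CPM and lowest in cluster 5 at 0.445 CPM, and its r was -0.37 with En2, -0.32 with En1 and -0.30 with Fev. Both had an r under 0.2 in size with Gata3 (0.17 and 0.06).

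The manually sorted cells give the same genes by anatomy and driver, as CPM of reads per cell. Per kilobase of exon the median cell held 306 CPM of Fev, 45.7 of En1, 31.2 of Gata3, 18.6 of Gata2, 4.92 of Lmx1b and 0.584 of En2, while Insm1 was at 0. All of Fev, Gata2, Gata3 and En1 had reads in 70 of 70 cells, Lmx1b in 67, En2 in 43 and Insm1 in 9. Between the highest and lowest group median (with 1 CPM added), 3 of the 6 factors of at least 10 CPM differed by at least 2-fold, against 79.9% of 8870 genes of that level. A group of 6 to 10 cells leaves such a median wide.

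**Figure D5:**
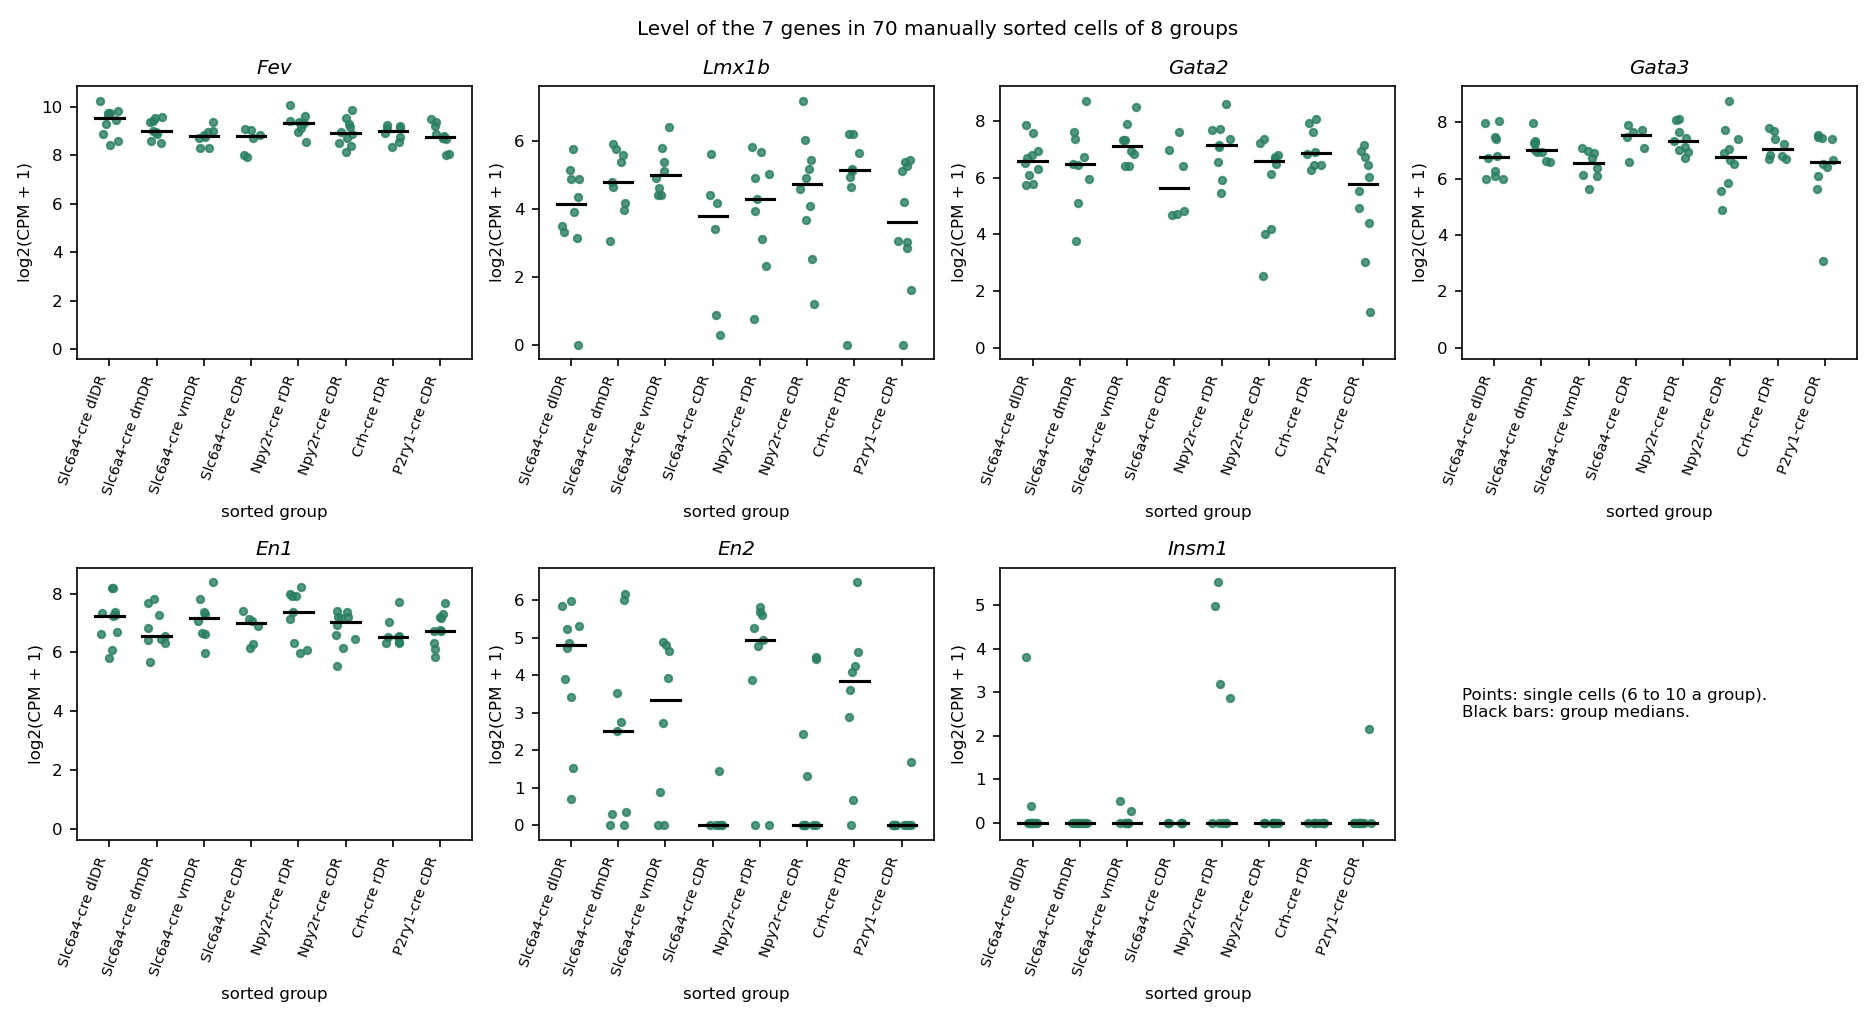
Level of each factor gene in 70 manually sorted cells as log2 of CPM plus 1 (vertical axes), by group (horizontal axes), where each point is 1 cell and each black bar a group median. En2 has reads in 1 of 6 Slc6a4-cre cDR cells and 1 of 10 P2ry1-cre cDR cells against 10 of 10 Slc6a4-cre dlDR cells, while Fev has reads in every cell of every group.

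Fev ranged from 242 to 1205 CPM over the 70 cells. The lowest, median and highest cells were at 340, 748 and 1205 CPM in Slc6a4-cre dlDR, 372, 638 and 1061 CPM in Npy2r-cre rDR, and 366, 508 and 768 CPM in Slc6a4-cre dmDR. They were at 322, 512 and 601 CPM in Crh-cre rDR, 279, 480.5 and 938 CPM in Npy2r-cre cDR, and 309, 442 and 653 CPM in Slc6a4-cre vmDR. The P2ry1-cre cDR cells were at 254, 429 and 726 CPM and the Slc6a4-cre cDR cells at 242, 436 and 546 CPM. All 8 groups overlapped. The dlDR median rested on the 5 cells of day 90 (median 805 CPM, 617 to 864), since the 5 of day 63 had a median of 470 CPM (340 to 1205). In each of the 6 groups with 2 ages the older cells had the higher median Fev, for example 664 against 501 CPM in dmDR and 495 against 362 CPM in vmDR. The Slc6a4-cre cDR cells were all of day 63, so over all cells the order of the groups and age cannot be told apart. Among Slc6a4-cre cells of day 63, 4 to 6 a group, the medians were 501 CPM in dmDR, 470 in dlDR, 436 in cDR and 362 in vmDR.

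Lmx1b spanned more cells at low counts. Its medians ran from 12.35 CPM in P2ry1-cre cDR and 13.3 CPM in Slc6a4-cre cDR to 31.2 CPM in Slc6a4-cre vmDR and 34.4 CPM in Crh-cre rDR. The P2ry1-cre cells ranged from 0 to 42.6 CPM and the Crh-cre cells from 0 to 72.6 CPM, so the groups at the ends overlapped. The vmDR cells, at 20.2 to 83.4 CPM, had the smallest SD of log2 CPM plus 1 (0.70).

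Gata2 was lowest in the cDR groups of P2ry1-cre (1.40 to 142 CPM, median 54.6) and Slc6a4-cre (24.8 to 197 CPM, median 56.2). It was highest in Npy2r-cre rDR (42.5 to 391 CPM, median 142) and Slc6a4-cre vmDR (83.35 to 362 CPM, median 140). Over the 26 cDR cells the median was 77.3 CPM, and over the 44 other cells 114 CPM, with overlapping ranges (1.40 to 197 and 12.6 to 419).

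Gata3 had its highest median in Slc6a4-cre cDR (94.4 to 241 CPM, median 188) and its lowest in Slc6a4-cre vmDR (48.5 to 135 CPM, median 93.7). P2ry1-cre cDR cells were at 7.48 to 184 CPM with a median of 96.2, so the caudal groups did not share a high Gata3. Over all 26 cDR cells the median was 125 CPM, and over the 44 others 124 CPM. The number of Gata3 reads per Gata2 read had a median of 4.43 in Slc6a4-cre cDR (above 1 in 5 of 6 cells) and 2.87 in P2ry1-cre cDR (7 of 10 cells), and of 0.652 in Slc6a4-cre vmDR (3 of 8 cells). It was 1.57 in Npy2r-cre cDR (6 of 10 cells), below the 1.78 of Slc6a4-cre dmDR (6 of 9 cells), so the 3 caudal groups were not all above the others. Single cells ran from 0.134 to 91.3, so this ratio is not a stable mark of a group.

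En1 did not follow the caudal and rostral divide. Its medians ran from 90.2 CPM in Crh-cre rDR (78.6 to 211) and 92.3 CPM in Slc6a4-cre dmDR (49.55 to 226) to 151 CPM in Slc6a4-cre dlDR (54.8 to 293) and 164.5 CPM in Npy2r-cre rDR (62.75 to 301). The median was 120 CPM in the 26 cDR cells and 122 CPM in the 44 others. The Npy2r-cre rDR median was set by the 6 cells of day 87 (204 CPM), as the 3 of day 77 had 78.7 CPM.

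En2 was the gene whose detection differed most between cDR cells and the others. It had reads in 6 of 26 cDR cells (23.1%, exact binomial 95% interval 8.97 to 43.65) and in 37 of 44 others (84.1%, 69.9 to 93.4). Of the cDR cells, 1 of 6 of Slc6a4-cre (1.75 CPM), 1 of 10 of P2ry1-cre (2.23 CPM) and 4 of 10 of Npy2r-cre (up to 21.4 CPM) had reads. All 10 Slc6a4-cre dlDR cells had reads (0.634 to 61.8 CPM, median 26.9), as did 7 of 9 Npy2r-cre rDR cells (median 29.7 CPM, up to 55.2) and 7 of 8 Crh-cre rDR cells (median 13.6 CPM, up to 88.35). The dmDR had 7 of 9 (median 4.75 CPM) and the vmDR 6 of 8 (median 9.96 CPM). The Npy2r-cre line was sorted in both places: 7 of 9 of its rDR cells and 4 of 10 of its cDR cells had reads, at both ages in each place. A count of 0 here comes from cells with 3342867 or more reads in the Slc6a4-cre and P2ry1-cre cDR groups. Glial markers were highest in Slc6a4-cre cDR, at a median sum of 86.8 CPM (Mbp 40.3 and Gfap 27.1), and lowest in P2ry1-cre cDR, at 0.0870 CPM. The part of glial RNA in the En2 counts was not tested.

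Insm1 had reads in 4 of 9 Npy2r-cre rDR cells (6.28 to 45.3 CPM), 2 of 10 Slc6a4-cre dlDR cells (up to 12.9 CPM), 2 of 8 Slc6a4-cre vmDR cells (up to 0.429 CPM) and 1 of 10 P2ry1-cre cDR cells (3.43 CPM). No other group had reads. In the Npy2r-cre rDR group, 2 of the 4 cells were among the 4 shallow ones, with 1247098 and 1434319 reads, while the cell with the highest level had 5215246.

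Mutual correlation over the 70 sorted cells (log2 of CPM plus 1) was highest for Fev and Gata2 (0.38), Gata2 and En2 (0.37) and Fev and En1 (0.32). The median of the 15 pairs without Insm1 was 0.12, and 12 of 15 had the sign found in the 10X cells. The r of En1 and En2 was 0.12 here against 0.35 in the 10X cells, and that of Gata2 and Gata3 was 0.053, or -0.20 by Spearman's rho. With group means subtracted, Fev and Gata2 stayed at 0.37 and Fev and En1 at 0.30, whereas Gata2 and En2 went to 0.15 and Fev and En2 from 0.26 to 0.024. Over the 8 group medians, r was 0.79 for Gata2 and En2, 0.76 for Fev and En2 and 0.72 for Lmx1b and Gata2, with n of 8 groups that share drivers and sorting.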

How the data were processed

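The authors mapped the 10X reads to mm10 with Cell Ranger 3.0.2 and deposited UMI counts after their filters on cells and genes, which included low Fev. For the manual cells they mapped to mm10 and counted with STAR 2.5.4 and deposited read counts per gene. R 3.5.3 is also named in the submitters' processing notes. Sequencing platform varied between manual cells and is not labelled. All manual columns were matched to samples by title (0 unmatched), with the Crf columns (8) matched to the Crh titles.

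Log-normalised values (per 10000 UMIs) were made in Seurat 5.3.0 (R 4.3.3), where 2000 variable genes, components 1 to 5 and 8 to 50 of an exact decomposition, 20 neighbours and a resolution of 0.9 gave 14 clusters. Components 6 and 7 were left out as in the study's methods, and 20 neighbours were an own choice. The exact decomposition was chosen after the truncated one had been seen to mix clusters 8 and 10. Intervals are exact (Poisson or Clopper-Pearson) at 95% and cover counting error only. Thinning to 20000 UMIs left out 53 cells. Scrublet in scanpy 1.11.5 was run per barcode set (expected rate 5%) and called 7 doublets in either, all kept. Ratios of summed UMIs and the correction of r for counting noise were tested on simulated data. Correlations are descriptions over cells with no p. Levels of the manual cells were also scaled with edgeR 4.0.16 and DESeq2 1.42.0. Python 3.11.15, numpy 2.4.6, scipy 1.17.1, pandas 2.3.3 and matplotlib 3.10.9 were used.

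The genes named are the 7 factors, the members of the gene lists given with a count, the 3 genes with the highest r to each factor over cells and the 2 over clusters. The genes with the lowest r were added after their values had been seen. The members and lists were chosen with earlier results of these data known.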

Additional observations from a re-analysis of the deposited data

Results flagged for a closer look

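In each sorted group of 6 to 10 cells, the highest and lowest cell were set against the nearest other cell by Dixon's criterion on CPM. Of 52 combinations of gene and group in which cells differed, 12 had an extreme cell, always the highest. Chance flags about 1 in 20 for values with a normal spread, and CPM of single cells are skewed.

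The cell with the highest Lmx1b among the Npy2r-cre cDR cells (143.8 CPM, nearest other cell 63.5 CPM) was also the one with the highest Gata3 there (432.5 CPM, nearest 210.2 CPM). A single Crh-cre rDR cell had both the highest En1 (210.8 CPM, nearest 131.5 CPM) and the highest En2 (88.35 CPM, nearest 23.58 CPM). Single cells stood apart for Gata2 in Slc6a4-cre dmDR (419.4 CPM, nearest 193.3 CPM) and Npy2r-cre rDR (391.2 CPM, nearest 210.0 CPM), and another cell for Gata3 in Slc6a4-cre dmDR (252.3 CPM, nearest 159.0 CPM).

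Low genes were flagged where only 1 or 2 cells held reads: En2 in Slc6a4-cre cDR (1.752 CPM) and P2ry1-cre cDR (2.229 CPM), and Insm1 in Slc6a4-cre dlDR (12.93 CPM), Slc6a4-cre vmDR (0.429 CPM) and P2ry1-cre cDR (3.43 CPM).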

How the results depend on the processing

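Of 427 values recomputed under other settings for 63 results, 329 stayed within the error of the value reported (its 95% interval, or for sorted cells the spread between cells), 96 moved beyond it and 2 did so with a change of sign. In all, the sign changed for 20 values, and the other 18 were of results that lay within their error of 0, mostly correlations with Gata3. The log2 ratio of En2 in cluster 8 to all other cells (-3.88) was -1.72 with components 1 to 50, -1.40 at a resolution of 0.7 and -1.72 with a truncated decomposition (added after seeing the data), all of which join cells of clusters 8 and 10, and -5.62 in barcode set 1 alone, from 2 UMIs. For Fev in cluster 13 (-0.92), the sets gave -1.10 (set 1) and -0.78 (set 2). The spread of En2 beyond noise (0.554) was 0.460 at 10000 UMIs. Thinned to 20000 UMIs, r went from 0.38 to 0.20 for Fev and En1, from 0.35 to 0.22 for En1 and En2 and from 0.15 to 0.082 for the median of 15 pairs. With cluster means subtracted these were 0.23, 0.19 and 0.053, and corrected for counting noise (added after seeing the data) 0.47, 0.62 and 0.32. En1 and En2 gave 0.31 in barcode set 1. The median r of Fev with 13 effectors (0.24) was 0.046 without clusters 13 and 14, 0.13 thinned and 0.069 with cluster means subtracted (added after seeing the data). That of Gata3 changed sign without clusters 13 and 14, to -0.0050 from 0.086. The log2 ratio of median Fev in Slc6a4-cre dlDR to P2ry1-cre cDR (0.80) was 0.13 with dlDR cells of day 63 only and 0.042 with the P2ry1-cre cell of day 62 only. That of Lmx1b in Crh-cre rDR to P2ry1-cre cDR (1.41) was -0.30 with the P2ry1-cre cell of day 63 only and -0.11 with those of day 66 only. That of En1 in Npy2r-cre rDR to Crh-cre rDR (0.86) changed sign to -0.20 with Npy2r-cre cells of day 77 only. Apart from the joined clusters, the cause of these changes was not tested. No paired analysis was possible because no result comes from a test and replicate numbers only name cells. Depth limits Insm1 and low En2, where 1 UMI or read decides a cell.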
